A study of Mus musculus with 8 samples.

Results

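The genes described here are 58 MYC network and ribosome biogenesis genes, chosen by name, and they were read from the gene counts of WT and Trim28 KO Th17 cells. Either count table listed 56 of them, among 13704 genes listed in all. Myc itself and Nolc1 were in neither table and are not analysed here. At least 10 reads over both libraries were counted for 54 of the 56, and these 54 were tested within the 10881 genes that reached this minimum. The remaining pair, Mycn and Nip7, had 3 reads or fewer in each library.

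The comparison asks how loss of TRIM28 altered RNA levels in T helper 17 (Th17) cells. TRIM28 is best known as a corepressor that is brought to chromatin by other DNA-binding proteins. For Th17 cells, the study proposes that it acts mostly as a co-activator. The WT library came from wild type C57BL/6 mice. The KO library came from TRIM28fl/flxCD4cre mice of the same strain, in which the Cd4 promoter drives Cre, so the floxed Trim28 alleles are deleted from the stage of thymic development at which Cd4 comes on. Whether the WT mice carried Cre or floxed alleles is not given in the sources used here, nor are the ages of the mice or the number of animals behind a library. In both groups naive CD4+ T cells were kept for 3 days in 0.5 ng/ml TGFβ and 20 ng/ml IL-6, after activation on bound anti-CD3 and anti-CD28, and the study's methods add a second anti-CD3 stimulation before RNA was extracted with Trizol. Libraries were made from mRNA. Each genotype had 1 library, so no difference below has a replicate check: the tests compare these libraries, not the genotypes, and the intervals cover counting error only. In cultures of this kind, fewer cells of a type and less RNA per cell cannot be told apart.

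MYC is a transcription factor that binds DNA as a dimer with MAX, most often at the E-box CACGTG, and MXD proteins and MGA compete with it for MAX and repress the same kind of site. Ribosome biogenesis starts in the nucleolus, where RNA polymerase I transcribes the precursor of the ribosomal RNAs. Small nucleolar ribonucleoproteins (snoRNPs) modify this precursor, the small subunit processome folds and cuts its 18S part, and a separate series of particles matures the large subunit. Activated T cells enlarge their nucleoli and make many ribosomes as they grow and divide, and genes of this pathway are among the best known MYC targets.

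Depth was alike, at 6.65 M reads (M, 1000000 reads) over 13078 genes in WT and 6.19 M over 12754 genes in KO. Trim28 had 4485 and 180 reads, so it fell by 4.53 on the log2 scale (exact 95% interval -4.76 to -4.32). The Th17 markers Il17f, with 3143 and 345 reads, and Il21, with 3537 and 1233 reads, fell in KO. Of 8 T cell markers, Cd28 alone fell by 1.5-fold or more, from 8897 to 5191 reads, and Cd3e had 4407 and 4778 reads. Markers of other cell types summed to 114 reads in WT and 78 in KO over the 8 of 17 that were listed, led by Cd8b1 with 52 and 27 reads. Lyz2, Ncr1, Elane and the haemoglobin genes were among those not listed.

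Most of the MYC network and ribosome biogenesis genes were abundant, and 47 of the 54 tested differed by less than 1.5-fold between the libraries. As RPKM, which scales reads to library size and to transcript length (here the longest curated RefSeq transcript), their median level was 40.7 in WT and 38.2 in KO, against 9.84 and 9.17 over all genes tested with a length. Of the 54, 48 lay above the WT median of all genes. The highest levels in WT were those of Fbl (260 RPKM), Ncl (212), Nop56 (168), Nop58 (138) and Ddx21 (118). Summed, the 56 listed genes made up 0.803% of the reads in WT and 0.743% in KO, or a log2 fold change of -0.11 (-0.13 to -0.09).

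**Figure D1:**
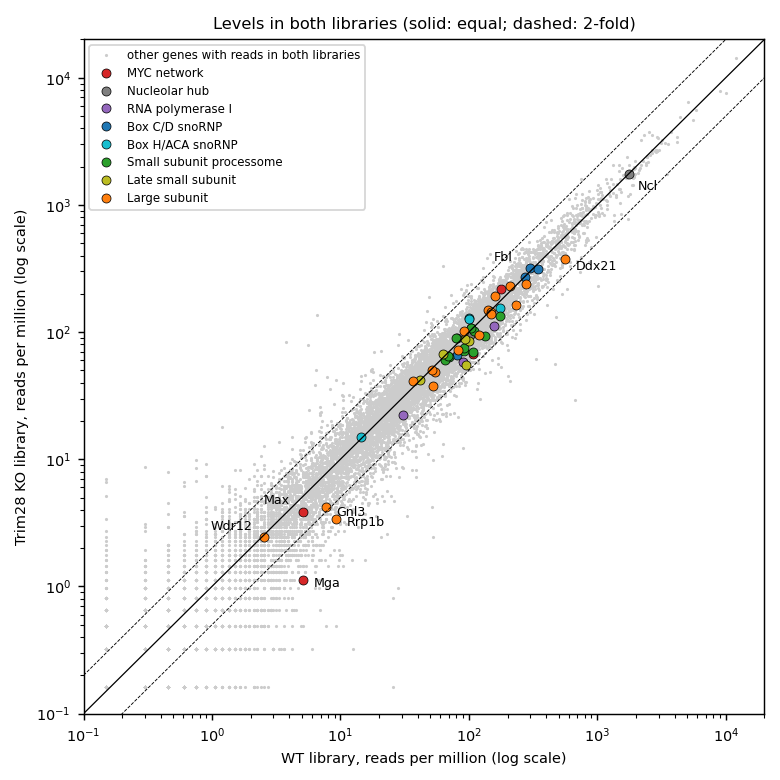
Reads per 1000000 (CPM) in the WT library (x, log scale) and the KO library (y, log scale), 1 point per gene with reads in both libraries, coloured by role for the MYC network and ribosome biogenesis genes and grey for other genes. The coloured points follow the line of equal levels, with Ncl on it at 1750 CPM in WT and 1763 CPM in KO, and Mga and Rrp1b lie below the dashed 2-fold line. Mycn and Nip7, each with 0 reads in 1 library, cannot be drawn on log axes.

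A gene was called lower or higher where a two-sided exact binomial test of its reads gave an adjusted p under 0.05 over all 10881 genes tested and the change reached a fold limit. At the limit of 2-fold, 2 of the 54 were lower in KO (Mga and Rrp1b) and 0 were higher, while over all genes tested 5.53% were lower and 2.57% were higher. At a limit of 1.5-fold, 7 of 54 were lower (Mga, Rrp1b, Gnl3, Tsr1, Mxd4, Utp20 and Polr1b) and 0 were higher, beside 11.5% and 7.02% of all genes. The shares that were lower were therefore near those of all genes. The direction of the smaller differences was less even. Of the 54, 37 had a log2 fold change below 0 (68.5%, against 51.4% of all genes tested) and 17 above 0. In 23 the exact 95% interval lay wholly below 0 and in 6 wholly above 0, beside 25.0% and 23.5% of all genes tested. The same 23 and 6 members are those with an unadjusted p under 0.05 in the exact binomial test, at any fold. Their median log2 fold change was -0.12, against -0.02 over all genes tested.

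The spread of the changes was narrow. The quartiles of the 54 log2 fold changes were -0.39 and 0.06, a width of 0.45, whereas those of all genes were -0.41 and 0.30, a width of 0.71. Of the 54, 47 changed by less than 1.5-fold, or 87.0%, against 71.5% of all genes. Low counts widen the spread, so the shares were also taken over genes with at least 200 reads: 44 of 48 members (91.7%) and 83.4% of 6602 genes lay within 1.5-fold. With at least 200 reads, 0 of the 48 members reached 2-fold, beside 251 of the 6602 genes. At so small a share over those genes, a count of 0 in 48 does not set the members apart.

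**Figure D2:**
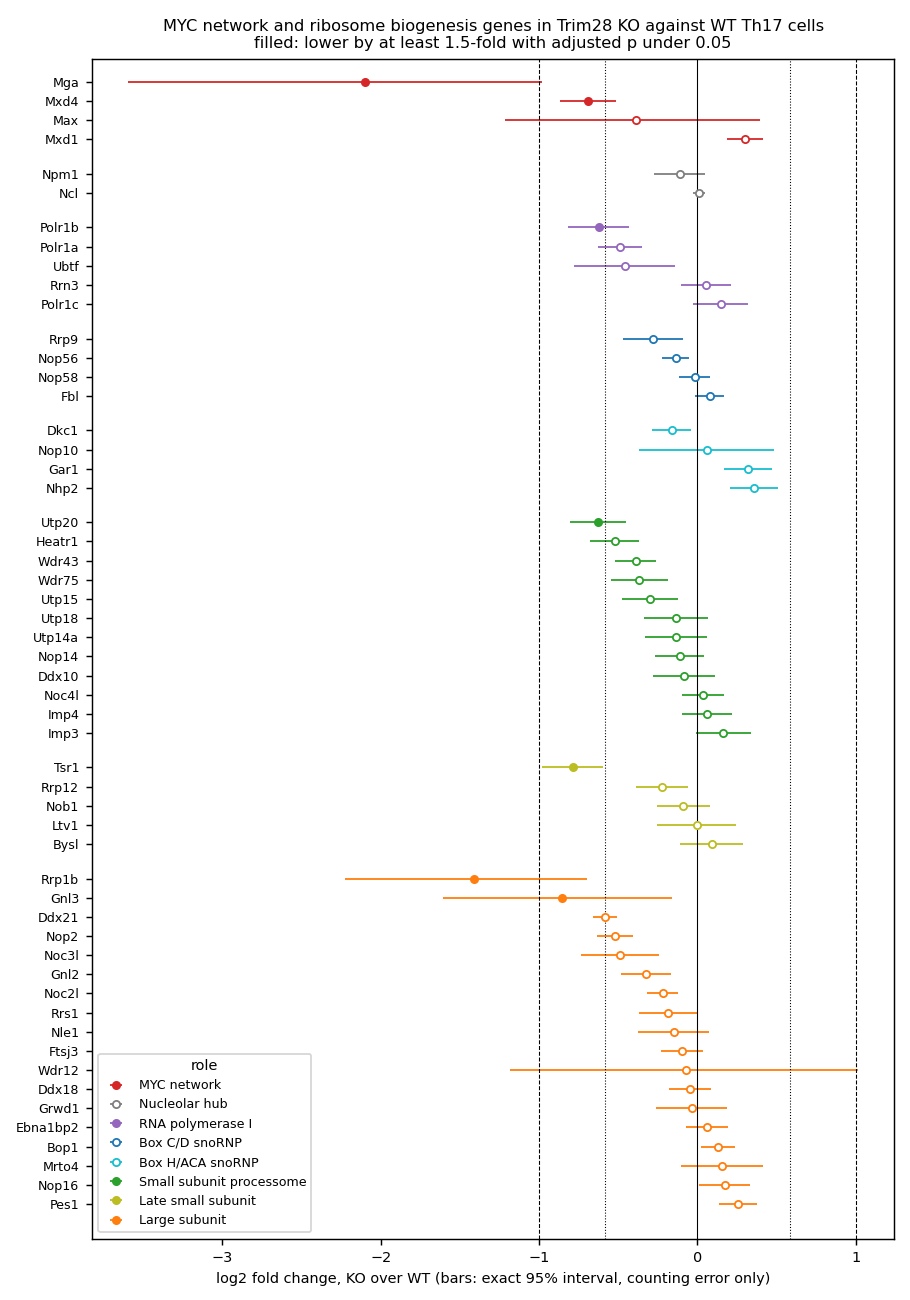
Log2 fold change of KO over WT (x) for each of the 54 genes tested, grouped and coloured by role, with bars for the exact 95% interval (counting error only), dotted lines at 1.5-fold and dashed lines at 2-fold. The filled points are the 7 genes lower by at least 1.5-fold, and no gene passes 1.5-fold on the right, where Nhp2 at 0.36 is the farthest.

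The genes differed in whether the E-box lies near their start sites. The 300 bases from 250 before to 49 after the start base were searched for CACGTG, which reads the same on both strands, in RefSeq promoter sequences of GRCm38.p6. These sequences covered 51 of the 58 genes (all but Myc, Npm1, Fbl, Rrp12, Bop1, Rrs1 and Gnl2). The hexamer was present for 13 of the 51 genes (25.5%), beside 12.0% of 8221 genes tested and 8.09% of all 27025 genes in the set. Counted per window, it was present in 13 of 60 windows of these genes (21.7%) and in 10.4% of the windows of genes tested. The genes with it were Max, Mxd4, Rrn3, Wdr43, Utp18, Utp20, Imp4, Tsr1, Ltv1, Nop2, Pes1, Nle1 and Grwd1. The 6 with the most reads are printed below, 5′ to 3′ on the strand of the gene and with the E-box in capitals, to show how its place varies and that genes with it were lower, level or higher in KO.
Nop2, chr6:125131633-125131932, plus strand: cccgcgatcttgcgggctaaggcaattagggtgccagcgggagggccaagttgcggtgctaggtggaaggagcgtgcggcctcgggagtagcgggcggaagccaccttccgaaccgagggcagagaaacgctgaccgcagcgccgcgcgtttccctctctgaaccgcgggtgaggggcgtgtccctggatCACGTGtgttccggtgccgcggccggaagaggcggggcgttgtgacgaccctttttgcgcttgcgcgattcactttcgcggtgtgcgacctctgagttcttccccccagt
Pes1, chr11:3963725-3964024, plus strand: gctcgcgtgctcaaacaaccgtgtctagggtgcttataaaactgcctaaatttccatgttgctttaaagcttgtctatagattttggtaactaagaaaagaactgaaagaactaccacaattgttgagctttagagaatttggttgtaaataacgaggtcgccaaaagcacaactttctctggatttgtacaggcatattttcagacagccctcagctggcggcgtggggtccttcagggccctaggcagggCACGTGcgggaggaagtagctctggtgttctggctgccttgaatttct
Wdr43, chr17:71615965-71616264, plus strand: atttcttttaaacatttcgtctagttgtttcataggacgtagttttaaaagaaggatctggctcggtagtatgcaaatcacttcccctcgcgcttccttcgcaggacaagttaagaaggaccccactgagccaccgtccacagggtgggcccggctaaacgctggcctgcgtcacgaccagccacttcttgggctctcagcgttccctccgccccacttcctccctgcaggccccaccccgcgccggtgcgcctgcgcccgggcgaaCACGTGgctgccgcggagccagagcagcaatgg
Imp4, chr1:34439579-34439878, plus strand: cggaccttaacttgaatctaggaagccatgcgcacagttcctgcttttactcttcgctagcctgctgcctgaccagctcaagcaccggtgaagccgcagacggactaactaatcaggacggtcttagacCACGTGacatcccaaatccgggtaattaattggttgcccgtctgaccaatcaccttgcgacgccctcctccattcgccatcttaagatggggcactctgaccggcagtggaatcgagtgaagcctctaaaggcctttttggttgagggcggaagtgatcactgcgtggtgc
Rrn3, chr16:13780449-13780748, plus strand: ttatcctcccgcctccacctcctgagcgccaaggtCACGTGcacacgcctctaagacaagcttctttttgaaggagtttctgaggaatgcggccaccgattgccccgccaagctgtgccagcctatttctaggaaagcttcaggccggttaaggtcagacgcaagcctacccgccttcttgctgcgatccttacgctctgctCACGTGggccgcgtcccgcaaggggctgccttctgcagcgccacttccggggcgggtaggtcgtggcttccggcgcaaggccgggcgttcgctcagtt
Utp20, chr10:88826765-88827064, minus strand: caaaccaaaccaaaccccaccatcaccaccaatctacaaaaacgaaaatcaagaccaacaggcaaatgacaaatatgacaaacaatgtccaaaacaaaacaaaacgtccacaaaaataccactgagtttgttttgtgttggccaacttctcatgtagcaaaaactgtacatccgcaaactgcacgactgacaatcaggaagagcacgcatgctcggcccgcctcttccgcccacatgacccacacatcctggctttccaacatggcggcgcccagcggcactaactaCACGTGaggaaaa

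With the start base as 0, the hexamer began at -60 in Nop2, at -121 in Imp4 and at both -215 and -48 in Rrn3, the only one of the 13 with more than 1 copy. It began within the transcribed part, at 2 in Pes1, 17 in Wdr43 and 37 in Utp20. Of these 6 genes, Pes1 had an interval above 0, Imp4 and Rrn3 had intervals that included 0, and Nop2, Wdr43 and Utp20 had intervals below 0. The 13 genes with the hexamer had a median log2 fold change of -0.15 and the 35 tested genes without it had one of -0.10. Their ranges, from -0.79 to 0.26 and from -2.10 to 0.36, overlapped.

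Among the MYC network genes, the repressor genes Mga and Mxd4 fell in KO. Mga encodes a very large MAX partner that also carries a T-box DNA-binding domain, and lies on chromosome 2 from 119872503 to 119970129 (GRCm38.p6, plus strand). It had 34 reads in WT and 7 in KO, a log2 fold change of -2.10 (from -3.59 to -0.98, adjusted p = 0.000234, exact binomial test). With so few reads the size of the fall is known only loosely. Mxd4, on chromosome 5 from 34176580 to 34187710 (minus strand), had 718 and 414 reads, and its KO level was 62.0% of its WT level (log2 fold change -0.69, from -0.87 to -0.51, adjusted p = 5.24e-14, exact binomial test). Mxd1, of the same family of MYC antagonists, had 1187 and 1361 reads and an interval wholly above 0 (log2 fold change 0.30, from 0.19 to 0.42), short of the 1.5-fold limit. Max, the shared partner, had 34 and 24 reads, too few to separate the libraries (log2 fold change -0.39, from -1.22 to 0.40). Mycn, a paralogue of Myc, had 2 reads in WT and 0 in KO, which is under the limit of 3 reads that a count of 0 allows (0.451 CPM in WT and 0.485 CPM in KO).

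The nucleolar hub proteins nucleolin and nucleophosmin showed no difference beyond counting error on library totals. Ncl, which encodes nucleolin and was the gene with the most reads of the 56, had 11640 reads in WT and 10907 in KO, and its level in KO was 100.7% of that in WT (log2 fold change 0.01, from -0.03 to 0.05). Npm1, which encodes the nucleolar chaperone nucleophosmin, had 678 and 584 reads (log2 fold change -0.11, from -0.27 to 0.05).

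Of the RNA polymerase I genes, Polr1b fell, Polr1a and Ubtf had intervals below 0, and Polr1c and Rrn3 did not differ beyond counting error. Polr1b, the second largest subunit, on chromosome 2 from 129100970 to 129128060 (plus strand), had 600 reads in WT and 362 in KO, and it fell to 64.9% of its WT level (log2 fold change -0.62, from -0.82 to -0.43, adjusted p = 4.52e-10, exact binomial test). Polr1a, the largest subunit, had 1037 and 688 reads (log2 fold change -0.49, from -0.63 to -0.35). Ubtf, the upstream binding factor that marks active ribosomal DNA, had 204 and 138 reads (log2 fold change -0.46, from -0.78 to -0.14). Both had intervals below 0 but did not reach 1.5-fold. Polr1c, a subunit that RNA polymerase III also uses, had 538 and 554 reads, and Rrn3, which joins the polymerase to its promoter, had 688 and 664 reads. Both intervals included 0. The median over the 5 genes was -0.46, and it was -0.15 once the relation to transcript length described below was taken off.

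The snoRNP protein genes lay on both sides of 0, and 0 of 8 were called. Over all genes tested, 11.5% were lower and 7.02% higher by 1.5-fold, so a count of 0 in 8 does not set these genes apart. Box C/D proteins form particles, most of which direct 2′-O-methylation of ribosomal RNA. The methyltransferase gene Fbl had 2002 reads in WT and 1965 in KO, and the scaffold gene Nop58 had 1808 and 1662. On library totals neither differed beyond counting error. The paralogous scaffold gene Nop56 had 2287 and 1933 reads (log2 fold change -0.14, from -0.23 to -0.05) and Rrp9, a protein of the U3 snoRNP, had 535 and 410 (log2 fold change -0.28, from -0.47 to -0.09). Both intervals were below 0, and neither gene reached 1.5-fold. With the relation to length taken off, all 4 box C/D genes had intervals below 0, Fbl at -0.18 (from -0.27 to -0.09) and Nop58 at -0.15 (from -0.25 to -0.05) among them. Box H/ACA proteins form particles that direct conversion of uridine to pseudouridine. Nhp2 had 665 and 793 reads (log2 fold change 0.36, from 0.21 to 0.51) and Gar1 had 672 and 780 (log2 fold change 0.32, from 0.17 to 0.47). Those are the farthest of the 54 above 0, and with the relation to length taken off they were 0.10 and 0.08 with intervals that included 0. Dkc1, the pseudouridine synthase dyskerin, went the other way with 1154 and 959 reads (log2 fold change -0.16, from -0.29 to -0.04), and Nop10 had 96 and 93 reads. The median was -0.08 over the 4 box C/D genes and 0.19 over the 4 box H/ACA genes, and with length taken off these were -0.22 and -0.04, so the direction for box H/ACA depended on that step.

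In the small subunit processome, 1 of 12 genes was called lower, and 5 of 12 had intervals below 0. Over all genes tested, 11.5% were called lower by 1.5-fold and 25.0% had intervals below 0. Utp20, a long helical scaffold protein whose gene lies on chromosome 10 from 88746607 to 88826814 (minus strand), had 719 reads in WT and 433 in KO (log2 fold change -0.63, from -0.80 to -0.45, adjusted p = 5.9e-12, exact binomial test). It was the only processome gene past 1.5-fold, and with length taken off its value was -0.17 with an interval from -0.34 to 0.01. The other genes with intervals below 0 on library totals encode proteins of the subcomplex that binds the first part of the precursor. Heatr1 had 890 and 576 reads (log2 fold change -0.52, from -0.68 to -0.37), Wdr43 had 1155 and 820 (log2 fold change -0.39, from -0.52 to -0.26), and Wdr75 and Utp15, each with 613 reads in WT, had 442 and 463 in KO. None of these reached 1.5-fold. With length taken off, the intervals of Heatr1 (from -0.30 to 0.01) and Utp15 (from -0.33 to 0.03) included 0. Those of Wdr43 and Wdr75 stayed below 0. On library totals, the remaining 7 did not differ beyond counting error. Among them, Imp3 and Imp4, which form a complex on the U3 RNA, had 531 and 553 reads and 691 and 670 reads in WT and KO, and Nop14 and its partner Noc4l had 735 and 633 reads and 960 and 914. Utp18, Utp14a and the helicase gene Ddx10 had log2 fold changes of -0.14, -0.13 and -0.09. With length taken off, Utp14a alone of the 7 had an interval below 0 (from -0.40 to -0.01).

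Late maturation of the small subunit included the largest fall on library totals among the 48 members with at least 200 reads. Tsr1, a GTPase-like protein that sits on the pre-40S particle, on chromosome 11 from 74898080 to 74909340 (plus strand), had 627 reads in WT and 338 in KO, and fell to 58.0% of its WT level (log2 fold change -0.79, from -0.98 to -0.59, adjusted p = 2.78e-15, exact binomial test). With length taken off it remained past 1.5-fold at -0.71, where Mxd4 was lower at -0.94. On library totals, other factors of the same particle were near level. Nob1, the nuclease that makes the final 18S end, had 624 and 546 reads, Ltv1 had 278 and 258, and Bysl had 420 and 416, each with an interval that included 0. With length taken off, Nob1 was -0.28 (from -0.44 to -0.11) and Bysl was 0.22 (from 0.02 to 0.42). Rrp12, which takes part in export of the subunits, had 664 and 529 reads (log2 fold change -0.22 on library totals, from -0.39 to -0.06). Its interval with length taken off ran from -0.21 to 0.13.

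Of the 18 large subunit genes tested, 2 were called lower, near the 11.5% of all genes tested, and both had few reads. Rrp1b, a nucleolar protein on chromosome 17 from 32036162 to 32062865 (plus strand), had 61 reads in WT and 21 in KO (log2 fold change -1.41, from -2.22 to -0.70, adjusted p = 0.000152, exact binomial test). Gnl3, which encodes nucleostemin, on chromosome 14 from 31012433 to 31019131 (minus strand), had 51 and 26 reads (log2 fold change -0.85, from -1.61 to -0.16, adjusted p = 0.0296, exact binomial test). Gnl2, a related nucleolar GTPase gene, had 791 and 588 reads and a smaller difference (log2 fold change -0.32, from -0.48 to -0.17).

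The abundant large subunit genes ran in both directions. Ddx21, an RNA helicase of the nucleolus, had 3731 reads in WT and 2318 in KO, just short of the 1.5-fold limit (log2 fold change -0.58, from -0.66 to -0.51). Nop2, a methyltransferase of the large subunit RNA, had 1545 and 1002 reads (log2 fold change -0.52, from -0.64 to -0.40). Noc3l had 350 and 232 reads (log2 fold change -0.49), and Noc2l, which pairs with it in particles of the large subunit, had 1866 and 1490 (log2 fold change -0.22). These genes had intervals below 0 without reaching 1.5-fold, as did Rrs1, a factor of the 5S particle, with 551 and 450 reads. On the other side, Pes1, Bop1 and Wdr12 encode the 3 proteins of the PeBoW complex, which is needed for the large subunit RNAs to mature. Pes1 had 1060 and 1178 reads (log2 fold change 0.26, from 0.14 to 0.38) and Bop1 had 1399 and 1421 (log2 fold change 0.13, from 0.02 to 0.23), both with intervals above 0. With length taken off, Pes1 kept an interval above 0, whereas Bop1 was 0.06 with an interval from -0.05 to 0.17. Wdr12 had only 17 and 15 reads, and its interval, -1.18 to 1.01, covered either direction. Nop16 had 607 and 636 reads (log2 fold change 0.17, from 0.01 to 0.33), and with length taken off its value was 0.00. The other 7 tested genes, Wdr12 among them, had intervals that included 0 on library totals. They include the helicase gene Ddx18 with 991 and 891 reads, Ftsj3 with 993 and 863, and Ebna1bp2 with 945 and 918. Nle1 with 360 and 302, Grwd1 with 344 and 312, and Mrto4 with 246 and 255 complete them. With length taken off, Ddx18 was -0.14 (from -0.28 to -0.01) and Nle1 was -0.32 (from -0.54 to -0.09). Nip7 had 0 reads in WT and 3 in KO, at the floor of detection, and no fold is given.

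Transcript length moved with the fold changes over all genes, and so with those of this pathway, whose transcripts run from 738 bases (Nop10) to 13931 bases (Mga). Spearman's rho between length and log2 fold change was -0.49 across the 54 genes and -0.40 across 10808 genes with a length. These are correlations across genes of the same 2 libraries, and genes are not replicates. In the 18 shortest transcripts, up to 2039 bases, the median log2 fold change was 0.02, in the middle 18 it was -0.13, and in the 18 longest, from 3368 bases, it was -0.47. All genes tested in the same ranges of length had medians of 0.22, 0.05 and -0.25, so the genes of the pathway stood below other genes of like length in each range. With a smooth curve of fold change on length over all genes taken off, the 3 medians were -0.17, -0.17 and -0.16.

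After that step, 45 of the 54 genes lay below 0 (83.3%, against 49.5% of all genes), with a median of -0.17 against 0.00 over all genes. The number called at 1.5-fold went from 7 to 5 lower (Mga, Mxd4, Rrp1b, Gnl3 and Tsr1) and stayed at 0 higher, beside 8.03% and 6.16% of 10808 genes. With the longest GENCODE transcript as the length, an alternative chosen after seeing the data, the count was also 5, but the call of Mxd4 ended at -0.53 and Nop2 was called at -0.61. The calls of Utp20 and Polr1b ended with either length, and with the curated length the values of Heatr1 and Polr1a moved to -0.14 and -0.15. Ncl and Mxd1, already above 0, moved further up to 0.45 and 0.53. Npm1 moved down to -0.33, with an interval from -0.50 to -0.17. The curated transcript of Ncl is 8257 bases long, and Ncl's value rests on that length being the right one for the RNA counted. When a curve on GC content was taken off instead of length, the median of the 54 was -0.06, against 0.01 over all genes. On library totals it was -0.12, so its distance below 0 depended on the step chosen.

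**Figure D3:**
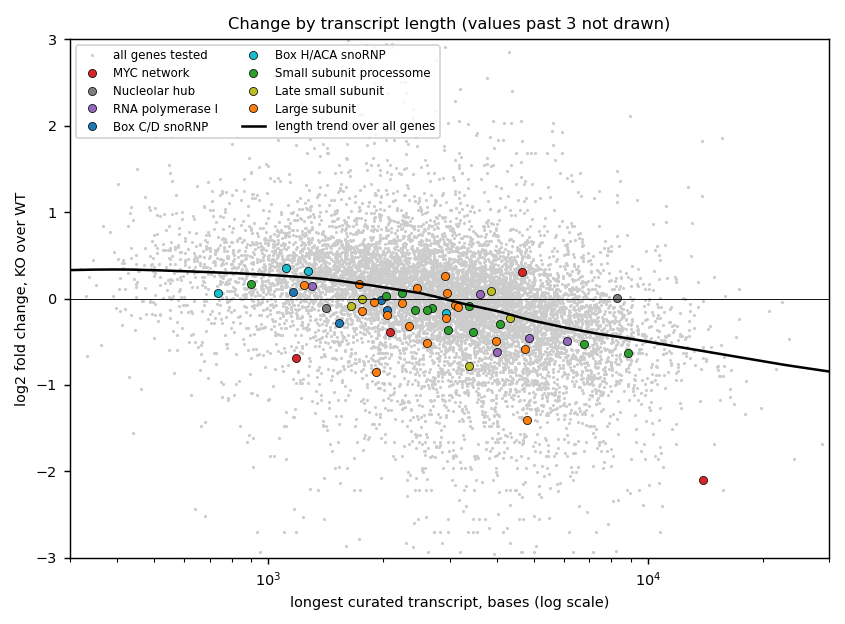
Log2 fold change of KO over WT (y) against the longest curated transcript in bases (x, log scale), 1 point per gene tested, grey for all genes and coloured by role for the pathway, with the smooth curve over all genes in black. Long transcripts lie lower, and 45 of the 54 coloured points lie under the curve.

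Few reads went with many annotated transcripts. Of the 42 members with 1 curated RefSeq transcript, 1 (Mycn) had under 100 reads over both libraries, whereas this was so for 3 of 5 with 2 curated transcripts and 3 of the 9 listed with 3 or more. The low ones include Mga, Rrp1b and Gnl3, the genes with the largest falls, and Max, Wdr12 and Nip7, while Myc and Nolc1, absent from both tables, have 4 curated transcripts each. Over all genes listed, the median WT level was 7.58 RPKM for genes with 1 curated transcript, 3.46 with 2 and 2.21 with 3 or more. Being listed at all went the other way. Of annotated protein-coding genes, 53.0% with 1 curated transcript were listed, 68.9% with 2 and 72.7% with 3 or more. The tables' header calls the values unique reads. How reads shared by several transcripts of a gene were counted was not stated, and its part in these low counts was not tested. With genes of 1 curated transcript alone, 4 of 41 members were lower by 1.5-fold (Mxd4, Polr1b, Utp20 and Tsr1) and 0 by 2-fold. Of all 6019 genes tested in that setting, 11.7% were lower by 1.5-fold and 325 genes by 2-fold, so these counts do not set the 41 apart.

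Some values may also hold reads of a neighbour, since the sources used here do not say whether strand was used in counting. Genes that overlap a gene with reads on the other strand were Nop56 (Idh3b), Nhp2 (Rmnd5b), Dkc1 (Mpp1), Bysl (Ccnd3), Noc2l (Klhl17 and Samd11), Bop1 (Mroh1 and Scx), Ftsj3 (Ddx42), Tsr1 (Srr), Gnl3 (Glt8d1), Wdr12 (Carf) and Utp14a (9530027J09Rik). Of the called genes among these, Tsr1 stood beside an Srr count of 18 and 1 reads, and Gnl3 beside a Glt8d1 count of 11 and 9. Small nucleolar RNA genes lie within Nop56 (5), Nop58 (4), Wdr43 (3), Gnl3 (3), Ncl (2), Dkc1 (1) and Tsr1 (1).

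Most other genes of the pathway were not called either. Of 104 further ribosome biogenesis and MYC network genes that were listed, 101 were tested, with a median of -0.06. By at least 1.5-fold 6 were lower and 3 were higher, beside 11.5% and 7.02% of all genes tested. By at least 2-fold 2 were lower and 0 higher, beside 5.53% and 2.57%. On library totals, the 101 were therefore called less often at 1.5-fold than genes at large. The lower ones included Mdn1, the giant ATPase that strips factors from the large subunit, with 1522 reads in WT and 559 in KO (log2 fold change -1.34, from -1.48 to -1.20). Naf1, which assembles box H/ACA particles, had 264 and 113 reads (log2 fold change -1.12, from -1.45 to -0.80). The processome gene Pwp2 had 426 and 229 reads, and the large subunit genes Urb1 and Urb2 had 498 and 255 and 562 and 319. The last of the 6 was Mxi1, a further MYC antagonist of the MXD family, with 181 and 84 reads (interval from -1.39 to -0.62). Mxd3, also of that family, rose from 334 to 575 reads (log2 fold change 0.89, from 0.69 to 1.09), so the MXD family genes Mxd4 and Mxi1 fell while Mxd3 rose. The other higher genes were Ruvbl2, an ATPase that binds MYC and helps assemble snoRNPs, with 895 and 1254 reads, and Eif6, which keeps the new large subunit from joining too early, with 1454 and 2071. With length taken off, the last pair and Urb1 and Urb2 no longer reached 1.5-fold, and 7 were lower and 2 higher. Of all genes with a length, 8.03% were lower and 6.16% higher in that fit, so the share of the 101 that was lower was then near that of all genes. Mdn1 then stood at -0.65, past 1.5-fold but no longer past 2-fold.

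Cell cycle genes moved the other way in the same libraries. Of 22 proliferation genes, 8 were higher by at least 1.5-fold and 3 by at least 2-fold, 0 were lower, 18 had intervals above 0, and the median was 0.55. Over all genes tested, 7.02% were higher by at least 1.5-fold and 2.57% by at least 2-fold. Plk1, a mitotic kinase, had 922 reads in WT and 2356 in KO (log2 fold change 1.46, from 1.35 to 1.57), Ccna2, encoding cyclin A, had 1383 and 2240, and Aurkb, a kinase of chromosome segregation, had 974 and 1455. Summed, the proliferation genes made up 0.641% of the reads in WT and 0.866% in KO, while the pathway genes made up 0.803% and 0.743%. Of 12 genes that respond to recent T cell receptor stimulation, which also induces Myc, 2 were lower by 1.5-fold and 0 were higher. Over all genes tested these shares were 11.5% and 7.02%. The 2 were Egr3, with 350 and 156 reads, and Ier3, with 154 and 80. The 12 ran in both directions, from -1.06 to 1.01 with a median of -0.23. Of them, 8 lay below 0 and 4 above, with intervals wholly below 0 in 4 and wholly above 0 in 2. The part of cell cycle or stimulation differences in the values of the pathway genes was not tested.

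**Figure D4:**
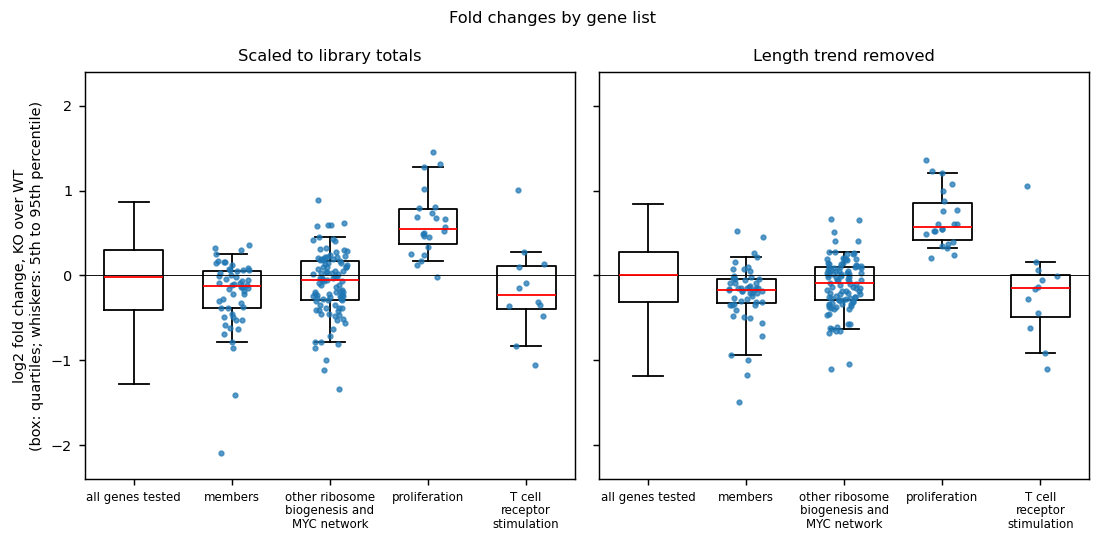
Log2 fold change of KO over WT (y) for 5 gene lists (x), scaled to library totals on the left and with the length trend removed on the right, with boxes at the quartiles, a red line at the median, whiskers from the 5th to the 95th percentile and 1 blue point per gene of a list. The pathway genes have medians of -0.12 and -0.17 and the proliferation genes medians of 0.55 and 0.58.

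The calls rest on counting error alone. When replicates were assumed to vary with a coefficient of variation of 0.1 in edgeR's exact test, 6 of the 7 calls at 1.5-fold were kept and that of Gnl3 ended. Of all genes tested, 7.77% were lower and 4.44% higher at that setting. At an assumed 0.2 or 0.4, 0 of 54 were lower and 0 were higher. Of all genes tested, 1.2% were lower and 0.597% higher at 0.2, and 0.083% and 0.064% at 0.4. With calls so rare, the counts of 0 do not set these 54 apart from other genes. Mga and Rrp1b had an unadjusted p under 0.05 in edgeR's exact test at 0.2, and Mga alone at 0.4. The calls in the other lists were lost alike: of the 101 further pathway genes 0 were called at 0.2 or 0.4, and of the 22 proliferation genes 1 was higher by 1.5-fold at 0.2 and 0 at 0.4.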

How the data were processed

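The deposited tables hold gene counts, whole numbers that the headers call unique reads, that the authors made from mRNA, with 1 library per genotype. The submitters' notes name mm10, bcl2fastq, HTSeq, Bowtie and SICER 1.1 for the series as a whole, while the study's methods name SOAP2 for RNA-seq; the counting settings are not given in the sources used here. A gene absent from one table was given 0 reads there.

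Counts were scaled to library totals and log2 fold changes (KO over WT) took 0.5 added reads. The 10881 of 13704 genes whose reads in the pair of libraries summed to 10 or more were tested by a two-sided exact binomial test with Benjamini-Hochberg adjustment (SciPy 1.17.1), calling an adjusted p under 0.05 with at least 2-fold, the study's limits, or 1.5-fold. Intervals are exact (Clopper-Pearson) at 95%. Length is the longest curated RefSeq transcript (GRCm38.p6), and its trend was a lowess curve of span 0.3 (statsmodels 0.14.6). Of the names, 13050 matched an annotated symbol, 602 a unique older symbol and 52 none. Alternatives used edgeR 4.0.16 and DESeq2 1.42.0 in R 4.3.3. The steps were tested on simulated data.

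The members and gene lists were chosen with earlier results of these data known. Named are every listed member, Trim28 and, from each other list, called genes, at most the 3 with the most reads in each direction. Markers and neighbours that were not called (Cd3e, genes absent from the tables and overlapping genes) were named after their values were seen, and some marker genes that the rule names are not reported here. The ChIP-seq samples of the series are not analysed here.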

Additional observations from a re-analysis of the deposited data

How the results depend on the processing

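Each result was recomputed under 13 alternatives chosen at the start and 2 chosen after seeing the data (GENCODE transcript lengths, and only genes with 1 curated transcript). TMM, DESeq2 size factors and upper-quartile scaling shifted log2 fold changes by 0.025, 0.011 and -0.008. The count of members lower by at least 2-fold, 2, was 1 with at least 50 reads over both libraries or at least 10 in each, and 0 under edgeR with an assumed coefficient of variation of 0.2 or 0.4 and with genes of 1 curated transcript. The count lower by at least 1.5-fold, 7, was 0 under edgeR at 0.2 and 0.4 and 4 with genes of 1 curated transcript, where 41 members were tested. Of all 6019 genes tested in that last setting, 11.7% were lower by 1.5-fold. The counts that were higher stayed at 0 under every alternative. The median stayed below 0, between -0.18 with GENCODE lengths and -0.06 with GC content. Of 794 values of single members, 22 lost the 1.5-fold call and 2 gained it, Ddx21 at -0.59 under upper-quartile scaling and Nop2 at -0.61 under GENCODE lengths. The sign changed in 28 of the 794, of which 8 were with length, 9 with GENCODE lengths, 8 with GC content, 2 with TMM and 1 with DESeq2 size factors. Among these, Nop16 alone had an interval that excluded 0 on library totals, and it reversed to -0.0011 with length taken off and -0.013 with GENCODE lengths. The median of the nucleolar hub genes reversed to 0.059 with length, 0.072 with GC content and 0.060 with GENCODE lengths. It is a median of 2 genes that split with length taken off, Ncl at 0.45 and Npm1 at -0.33. The median of the box H/ACA genes reversed to -0.038 with length and -0.057 with GENCODE lengths. The cause was not tested. No library could be left out, and no paired analysis was possible because each genotype has 1 library. At 34 and 7 reads (Mga) or 61 and 21 (Rrp1b), depth limits how well the size of the change is known.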
